A study of Mus musculus with 3 samples.

Results

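The genes described here are those of the tumor necrosis factor (TNF) ligand and receptor superfamilies in endothelial cells (ECs) of the adult mouse lung. Members were taken by symbol, as the genes named Tnfrsf or Tnfsf with a number, together with *Tnf*, *Lta*, *Ltb*, *Ltbr*, *Fas*, *Fasl*, *Cd40*, *Cd40lg*, *Cd27*, *Cd70*, *Ngfr*, *Edar* and *Eda2r*. This gave 44 of the 24346 genes of the deposited table, of which 27 encode receptors and 17 encode ligands. The rule reads symbols and no expression value, but the members were chosen with earlier results of these data known.

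The cells came from lungs of male C57BL/6J mice of 6 to 8 weeks with a wild type genotype, and their RNA was taken straight from sorted tissue without culture. Adult mice received an antibody to VE-cadherin by injection before death, and CD31 was stained after dissociation together with CD45 and podoplanin, the antigens used to leave out leukocytes and lymphatic ECs. There were 3 libraries of this 1 condition, called S38, S44 and S52 in the labels, and nothing in the labels says whether they came from separate mice, so the spread between them may be technical. With no second condition no difference between groups was tested, and an exact two-sided test over 3 libraries cannot give a p-value below 0.25.

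TNF superfamily ligands are mostly made as membrane proteins that act as trimers, on the cell that carries them or after they are shed. Their receptors fall into broad classes. Receptors with a death domain can start caspase activation, others recruit TRAF adaptor proteins and activate NF-kappaB and MAP kinases, and decoy receptors bind ligand without passing on a signal. In endothelium TNF is best known for inducing leukocyte adhesion molecules, lymphotoxin beta receptor for the vessels of lymphoid tissue, and TWEAK and its receptor Fn14 for growth and repair responses.

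Values are FPKM, fragments per kilobase of gene and 1000000 mapped fragments. Depth was estimated from the steps between low FPKM values, at about 37980000 (S38), 38820000 (S44) and 33890000 fragments (S52). Detected here means that the 3 libraries average 1 FPKM or more. *Pecam1*, the CD31 gene, was between 1125 and 1216 FPKM, *Cdh5*, the VE-cadherin gene, between 877 and 978 FPKM, and all 8 endothelial markers were detected, whereas *Ptprc*, which encodes CD45, ranged from 0.434 FPKM in S52 to 4.30 FPKM in S38. S52 stood apart from the other libraries by its lower values for platelet, leukocyte, alveolar type 2 and airway genes, so counts that rest on it are given with and without it. In bulk RNA, fewer cells of a type and less RNA per cell cannot be told apart.

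Of the 44 members, 24 were detected (54.5%), against 48.3% of all genes and 55.1% of the protein-coding genes of RefSeq, so the share was near the background. The detected members were 16 of the 27 receptors and 8 of the 17 ligands. Without S52 the count was 24, and it was 16 when every library had to reach 1 FPKM, or 23 when S38 and S44 had to. A few members held most of the transcripts. The 5 highest receptors made up 90.2% of the summed receptor FPKM in S38, 88.6% in S44 and 93.2% in S52, and the 5 highest ligands made up 92.4%, 95.1% and 99.2% of the ligand sum. In all, 9 members (20.5%, against 25.7% of all genes) had a mean of at least 10 FPKM and 5 (11.4%, against 7.17%) a mean of at least 50 FPKM. These 5 were *Fas*, *Tnfrsf1a*, *Tnfrsf12a*, *Tnfsf10* and *Ltbr*.

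**Figure D1:**
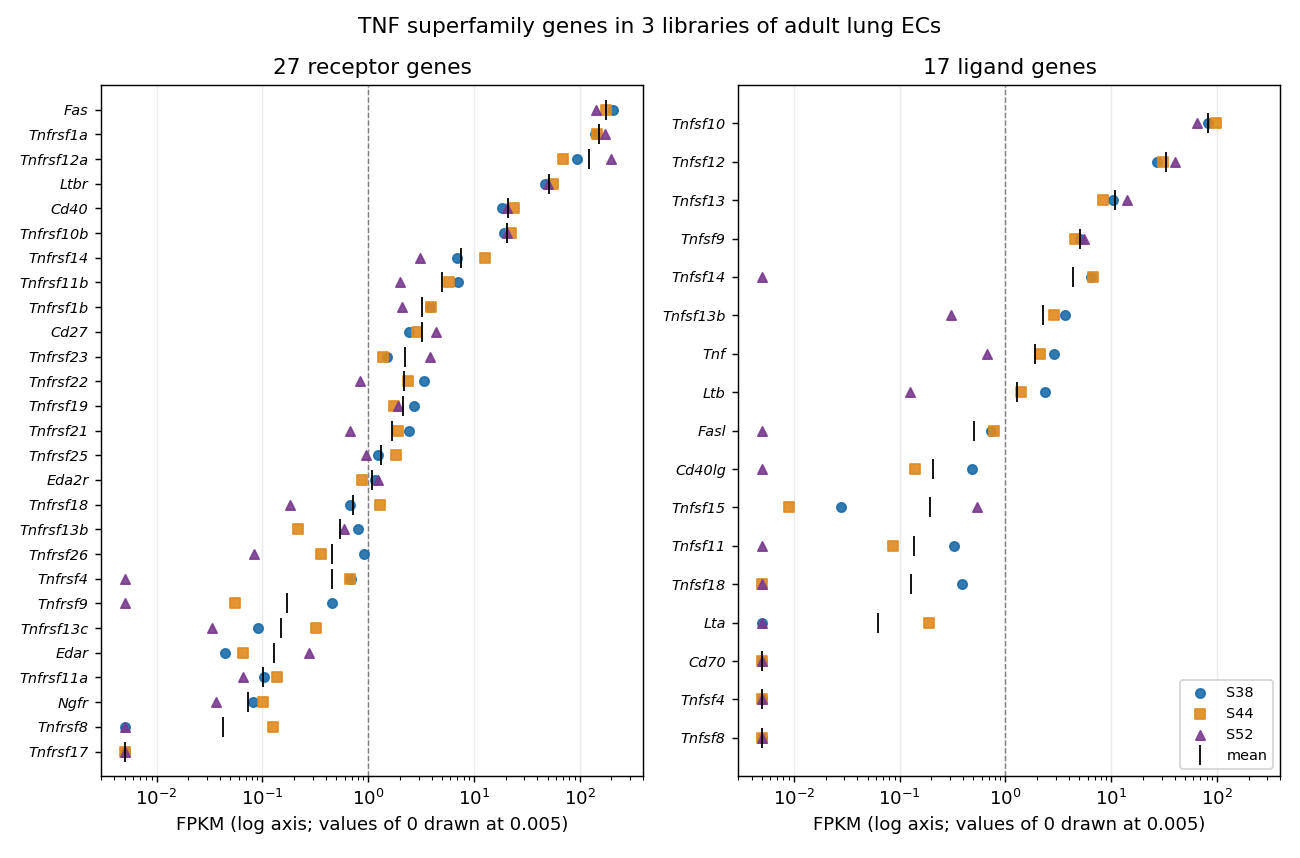
Each row is a gene of the TNF superfamilies and each symbol its FPKM in a library (circle S38, square S44, triangle S52) on a log axis, with values of 0 drawn at 0.005, a bar at the mean of the 3 libraries and a dashed line at 1 FPKM. The 5 highest genes lie above 45 FPKM in every library, and *Tnfsf14* is at 0 in S52 although it exceeds 6 FPKM in the other libraries.

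For these 5 genes the stretch before the RefSeq transcript start is shown, because most of the superfamily's transcripts in these cells came from them. The sequences are RefSeq promoter entries on GRCm38.p6, written 5′ to 3′ in the direction of the gene and ending before the first base of the gene in GENCODE M21. For *Tnfrsf1a*, whose GENCODE gene begins farther upstream, only 30 bases around a match are given. Capitals mark matches on either strand to CCGGAA or to TGANTCA, and no match overlapped another. CCGGAA is a subset of the sites bound by ETS factors, and the shorter GGAA was not searched. TGANTCA is the AP-1 motif, which reads alike on either strand. The stretches are chr19:34290409-34290658 on the plus strand for *Fas*, chr6:125349693-125349722 on the plus strand for *Tnfrsf1a*, chr17:23677469-23677699 on the minus strand for *Tnfrsf12a*, chr3:27316827-27317027 on the plus strand for *Tnfsf10* and chr6:125313886-125314135 on the minus strand for *Ltbr*.
Fas: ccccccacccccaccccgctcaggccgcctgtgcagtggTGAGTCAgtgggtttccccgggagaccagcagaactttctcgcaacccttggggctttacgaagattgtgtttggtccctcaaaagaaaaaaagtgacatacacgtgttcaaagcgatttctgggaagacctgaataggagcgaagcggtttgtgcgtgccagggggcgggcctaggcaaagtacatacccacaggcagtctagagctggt
Tnfrsf1a: ccctcgcctctccccaggctcTTCCGGtcc
Tnfrsf12a: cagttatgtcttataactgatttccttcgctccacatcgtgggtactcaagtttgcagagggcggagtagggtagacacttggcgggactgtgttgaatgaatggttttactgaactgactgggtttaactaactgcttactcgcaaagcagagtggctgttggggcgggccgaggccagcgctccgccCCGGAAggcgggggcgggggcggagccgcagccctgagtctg
Tnfsf10: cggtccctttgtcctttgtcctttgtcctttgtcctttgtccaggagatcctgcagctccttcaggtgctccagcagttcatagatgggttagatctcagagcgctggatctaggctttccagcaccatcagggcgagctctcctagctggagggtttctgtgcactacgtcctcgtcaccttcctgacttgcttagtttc
Ltbr: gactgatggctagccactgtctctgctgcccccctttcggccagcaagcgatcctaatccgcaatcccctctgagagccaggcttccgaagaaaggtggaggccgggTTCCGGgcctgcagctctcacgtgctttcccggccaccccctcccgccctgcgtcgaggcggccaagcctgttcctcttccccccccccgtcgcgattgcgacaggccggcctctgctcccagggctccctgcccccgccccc
In the 250 bases before the start, CCGGAA was present in *Tnfrsf1a*, *Tnfrsf12a* and *Ltbr* and in 12.0% of the 32851 promoter entries searched. The AP-1 motif was present in *Fas* and in 6.75% of entries. None of the 5 held GGG and TTTCC with 2 bases between them (a subset of kappaB sites, in 1.41% of entries), GAAA repeated after 2 bases (a subset of interferon response elements, in 2.98%) or TATAAA (in 12.4%). Over the 34 members with an entry, 6 had CCGGAA, 6 the AP-1 motif, 3 the kappaB subset, 4 the interferon response subset and 7 TATAAA. Some members have more than 1 entry and were counted if any entry matched, whereas the shares above are per entry. The counts of members therefore cannot be set directly against those shares. A match is a description of letters, and which start sites these cells used was not measured. The upstream stretch of *Ltbr* was the richest in G and C of the 5, at 69.2%, and that of *Tnfsf10* the poorest, at 51.6%, with a median of 52.4% over all entries.

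Among the receptors for TNF and the lymphotoxins, *Tnfrsf1a* was far above *Tnfrsf1b*. *Tnfrsf1a* encodes TNF receptor 1, the death domain receptor that carries most responses to soluble TNF, and was at 139 (S38), 146 (S44) and 173 FPKM (S52), or 153 ± 17.8 FPKM (SD, n = 3 libraries). *Tnfrsf1b* encodes TNF receptor 2, which binds TRAF2 and responds best to membrane-bound TNF. It was at 3.81, 3.91 and 2.08 FPKM in the same order. The ratio of the receptors was close in S38 (36.5) and S44 (37.2) and larger in S52 (83.0). On the log2(FPKM + 1) scale the difference was 5.19 ± 0.54 (SD, n = 3), in the same direction in 3 of 3 libraries (exact two-sided sign-flip permutation test, p = 0.25, the smallest that 3 libraries allow). *Ltbr*, the lymphotoxin beta receptor, was among the steadiest members, at 46.9, 55.8 and 50.8 FPKM (51.2 ± 4.45, SD, n = 3). *Tnfrsf14*, the herpesvirus entry mediator that binds LIGHT, was highest in S44 at 12.7 FPKM and lowest in S52 at 3.08 FPKM, so its highest library was 4.14 times its lowest.

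The death domain class had 7 genes, and 5 of them were detected. *Fas*, the receptor for Fas ligand, had the highest mean of all 44 members and ranked 532 among the 24346 genes. It was at 207 (S38), 178 (S44) and 144 FPKM (S52), or 176 ± 31.2 FPKM (SD, n = 3). Its order relative to *Tnfrsf1a* was not fixed, since *Fas* was the higher of the pair in S38 and S44 and the lower in S52. *Tnfrsf10b*, the mouse death receptor for TRAIL, was at 19.1, 22.3 and 20.7 FPKM (20.7 ± 1.63, SD, n = 3) and had the lowest coefficient of variation of the detected members, 7.88%. *Fas* exceeded it by 3.02 ± 0.32 on the log2(FPKM + 1) scale (SD, n = 3), in 3 of 3 libraries (exact sign-flip permutation test, p = 0.25). *Tnfrsf21*, known as death receptor 6, was at 2.47, 1.92 and 0.678 FPKM and *Tnfrsf25*, the receptor for TL1A, at 1.24, 1.83 and 0.950 FPKM. *Edar*, the ectodysplasin receptor of hair and tooth development, and *Ngfr*, the low-affinity neurotrophin receptor, did not reach 0.3 FPKM in any library.

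Of the 16 receptors that signal mainly through TRAF proteins, 8 were detected. *Tnfrsf12a*, which encodes the TWEAK receptor Fn14, was the member of at least 10 FPKM with the widest spread. It was at 94.3 (S38), 70.4 (S44) and 199.7 FPKM (S52), where it was the highest of all 44 members. That is 2.12 times its level in S38 and 2.84 times its level in S44. Its mean was 121 FPKM, or 82.3 FPKM without S52. *Cd40*, which on ECs receives CD40 ligand from platelets and T cells, varied little, at 18.3, 24.1 and 20.4 FPKM (20.9 ± 2.95, SD, n = 3). *Cd27*, a costimulatory receptor known from lymphocytes, was at 2.42 (S38), 2.93 (S44) and 4.36 FPKM (S52). Of the 7 T cell markers with a row, 6 were lowest in S52, but only 2 of the 7 averaged 1 FPKM or more. The highest of them, *Cd247*, was at 8.71, 11.6 and 9.48 FPKM and was not lowest in S52. Which cells gave the *Cd27* transcripts was not tested. *Tnfrsf19*, also called TROY, was at 2.72, 1.74 and 1.94 FPKM, and *Eda2r*, the receptor for the A2 form of ectodysplasin, at 1.17, 0.874 and 1.24 FPKM. The other 8 receptors of this class are mostly known from lymphocytes and dendritic cells and were below 1 FPKM on average. They were *Tnfrsf18*, *Tnfrsf13b*, *Tnfrsf4*, *Tnfrsf9*, *Tnfrsf13c*, *Tnfrsf11a*, *Tnfrsf8* and *Tnfrsf17*, and of these *Tnfrsf18*, known as GITR, was the highest, at 0.680, 1.30 and 0.182 FPKM.

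All 3 decoy receptors were detected, each below 10 FPKM. *Tnfrsf11b* encodes osteoprotegerin, the secreted decoy for RANKL and TRAIL, and was at 7.10 (S38), 5.84 (S44) and 2.01 FPKM (S52). *Tnfrsf22* and *Tnfrsf23*, which bind TRAIL without a death domain in the mouse, differed in S52, where *Tnfrsf22* was lowest and *Tnfrsf23* highest. *Tnfrsf22* was at 3.38, 2.38 and 0.833 FPKM and *Tnfrsf23* at 1.497, 1.38 and 3.82 FPKM, so their order was reversed in S52. The log2 difference between them was -0.03 ± 1.196 (SD, n = 3; exact sign-flip permutation test, p = 1), and 0.66 without S52. These genes share sequence: 708 of the 3303 windows of read length (51 bases) in the longest *Tnfrsf23* transcript also occur in *Tnfrsf22*, so reads there could be assigned to either gene, and their separate levels are uncertain. Their neighbour *Tnfrsf26*, a further receptor of the locus, was at 0.914, 0.363 and 0.0834 FPKM.

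Among the ligands, *Tnfsf10* was the highest in every library. It encodes TRAIL, the ligand of *Tnfrsf10b* and of the decoys, and was at 83.3 (S38), 98.8 (S44) and 64.8 FPKM (S52), or 82.3 ± 17.02 FPKM (SD, n = 3). It exceeded *Tnfrsf10b* by 1.92 ± 0.28 on the log2(FPKM + 1) scale (SD, n = 3), in 3 of 3 libraries (exact sign-flip permutation test, p = 0.25). *Tnfsf12*, the TWEAK gene, was at 27.4, 31.3 and 40.3 FPKM and *Tnfsf13*, the APRIL gene, at 10.4, 8.37 and 14.1 FPKM. *Tnfsf12* exceeded *Tnfsf13* in 3 of 3 libraries, by 1.52 ± 0.24 on the log2(FPKM + 1) scale (SD, n = 3; exact sign-flip permutation test, p = 0.25). Both genes overlap *Tnfsfm13*, a readthrough gene with a row of its own at 16.3, 13.0 and 19.1 FPKM. Of the windows of 51 bases, 678 of 1385 in *Tnfsf12* (49.0%) and 753 of 1453 in *Tnfsf13* (51.8%) also occur in it. How the fragments of this locus were divided among the 3 genes therefore sets the level of each. *Tnfsf9*, the 4-1BB ligand gene, was steady at 5.12, 4.60 and 5.54 FPKM (5.09 ± 0.47, SD, n = 3), while its receptor gene *Tnfrsf9* did not exceed 0.457 FPKM.

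The other 4 detected ligands were low or listed at 0 in S52. *Tnfsf14* encodes LIGHT and was at 6.41 FPKM in S38 and 6.77 FPKM in S44, an estimated 411 and 443 fragments, but was listed at 0 in S52. A count of 0 allows up to 0.0522 FPKM there (3 fragments, counting error only), so *Tnfsf14* was at least 123-fold higher in S38 and at least 130-fold higher in S44. *Tnfsf13b*, which encodes the B cell survival factor BAFF, was at 3.67, 2.91 and 0.305 FPKM. *Ltb*, the lymphotoxin beta gene, was at 2.38, 1.40 and 0.125 FPKM. *Tnf* itself was at 2.91 (S38), 2.13 (S44) and 0.668 FPKM (S52), an estimated 163, 122 and 34 fragments. For each of these 4 genes both S38 and S44 were over 2-fold above S52.

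The 20 members that were not detected included 9 ligands and 11 receptors. *Cd70*, *Tnfsf4*, *Tnfsf8* and *Tnfrsf17* were listed at 0 in all 3 libraries, which is 4 of the 44 members against 29.5% of all genes. *Tnfsf4* encodes OX40 ligand, *Tnfsf8* CD30 ligand, *Cd70* the ligand of CD27 and *Tnfrsf17* the plasma cell receptor BCMA. In S52 a count of 0 allows up to 0.0523 FPKM for *Tnfsf4*, 0.0242 FPKM for *Tnfsf8*, 0.128 FPKM for *Cd70* and 0.133 FPKM for *Tnfrsf17*. Of the 20 genes, 5 were above 0 in S38 and S44 and listed at 0 in S52, against 10.6% (1338) of all 12576 genes not detected. That base holds the 7183 genes listed at 0 in every library, but only 4 of the 20 members are such genes. The shares therefore cannot be compared directly. S52 also listed more genes of the whole table at 0 (9923) than S38 (8324) or S44 (8119). The 5 were *Fasl*, *Tnfrsf4*, *Cd40lg*, *Tnfrsf9* and *Tnfsf11*. *Fasl* was at 0.730 and 0.780 FPKM in S38 and S44, an estimated 49 and 54 fragments. *Tnfsf15*, which encodes TL1A and is known from ECs, had the opposite order, at 0.0278, 0.00901 and 0.544 FPKM, or about 3, 1 and 59 fragments. *Edar* was also highest in S52, at 0.275 FPKM. *Lta* was above 0 in S44, at 0.189 FPKM, and listed at 0 in S38 and S52. *Tnfsf18*, the gene of the GITR ligand, was above 0 in S38 alone, at 0.386 FPKM.

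The levels were also read as pairs of ligand and receptor, from a list of 25 textbook pairs. The list leaves out *Tnfsf10* with the decoys *Tnfrsf22* and *Tnfrsf23*, although all of these genes were detected, so the counts hold for the listed pairs only. Taken singly, 55.1% of the protein-coding genes of RefSeq were detected. No share over other pairs of genes was counted, so the counts of pairs are a description. Both genes were detected in 8 pairs, the receptor alone in 7, the ligand alone in 6 and neither in 4. Both genes reached 1 FPKM in S38 and S44 in all 8 of these pairs, but in every library in 3, since *Tnf*, *Ltb* and *Tnfsf14* were below 1 FPKM in S52. The 3 were *Tnfsf10* with *Tnfrsf10b*, *Tnfsf10* with *Tnfrsf11b*, and *Tnfsf12* with *Tnfrsf12a*. For *Tnfsf12* and *Tnfrsf12a* the receptor was the higher, by 1.72 ± 0.57 on the log2(FPKM + 1) scale (SD, n = 3), in 3 of 3 libraries (exact sign-flip permutation test, p = 0.25). The receptors detected without their ligand were led by *Fas*, whose ligand gene *Fasl* had a mean of 0.503 FPKM, *Tnfrsf1a* for lymphotoxin alpha, and *Cd40*, whose ligand gene *Cd40lg* had a mean of 0.207 FPKM. The ligands detected without receptor were those of the B cell receptors, *Tnfsf13* and *Tnfsf13b*, and *Tnfsf9*. The receptor genes *Tnfrsf13b*, *Tnfrsf13c* and *Tnfrsf17* had means of 0.537, 0.149 and 0 FPKM. These are transcripts of 1 sorted fraction, and protein or signalling was not measured.

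**Figure D2:**
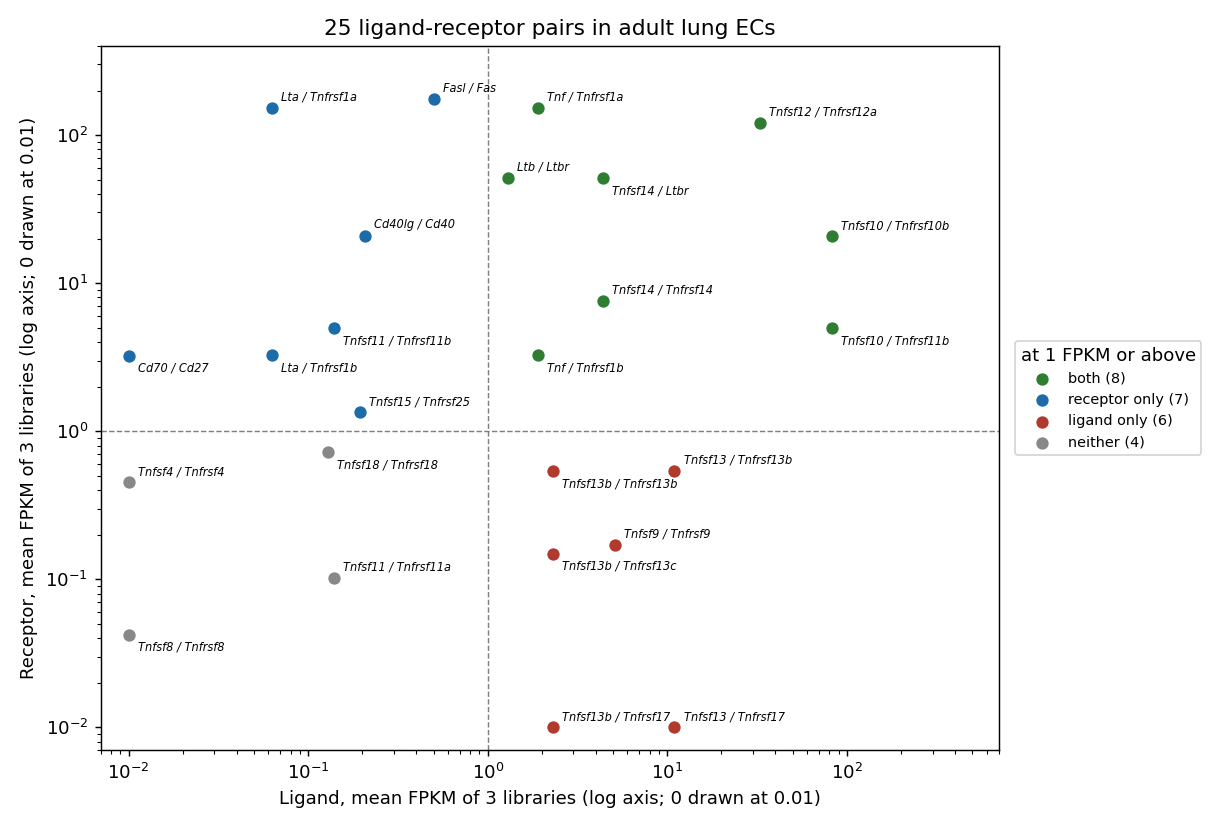
Each point is 1 of 25 ligand-receptor pairs, with the mean FPKM of the ligand on the x axis and of the receptor on the y axis (log axes, 0 drawn at 0.01, 3 libraries), colored by which side reaches 1 FPKM (dashed lines). The 8 pairs with both sides detected lie at the upper right, where only *Tnfsf10* with *Tnfrsf10b* and *Tnfsf12* with *Tnfrsf12a* have both means above 10 FPKM.

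Along the order of the 24 detected members by mean FPKM, 4 of the 23 neighbouring pairs had ranges that did not overlap. *Tnfsf10* was above *Ltbr*, *Ltbr* above *Tnfsf12*, *Tnfsf12* above *Cd40*, and *Tnfrsf10b* above *Tnfsf13* in all libraries. The first 4 members (*Fas*, *Tnfrsf1a*, *Tnfrsf12a* and *Tnfsf10*) overlapped with their neighbours, as did *Cd40* with *Tnfrsf10b*, and below *Tnfsf13* no neighbours were separated.

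The detected members differed in how steady they were. In 10 of the 24 (41.7%) the highest library was over 2-fold above the lowest, against 20.1% of all 11770 detected genes. The members split by level. Of the 9 with a mean of at least 10 FPKM, *Tnfrsf12a* alone passed this limit (all genes of that level, 8.74%), and of the 15 between 1 and 10 FPKM, 9 did (all genes of that level, 33.0%). All 10 rested on S52. S52 was the lowest library for 12 of the 24 (against 46.3% of detected genes) and the highest for 8 (33.3%, against 33.9%). Without S52 none of the 24 differed by over 2-fold between S38 and S44. S52 was over 2-fold below both other libraries for 8 members (33.3%, against 8.04% of detected genes), which were *Tnfsf14*, *Ltb*, *Tnfsf13b*, *Tnf*, *Tnfrsf11b*, *Tnfrsf14*, *Tnfrsf21* and *Tnfrsf22*. These 8 all had means between 1 and 10 FPKM, whereas the 8.04% is over detected genes of every level, and the share at their own level was not counted. S52 was over 2-fold above both for *Tnfrsf12a* and *Tnfrsf23* (8.33%, against 1.72%). On the log2(FPKM + 1) scale the median difference of S52 from the mean of the other libraries was -0.003 for the members of at least 10 FPKM and -0.93 for those between 1 and 10 FPKM, with -0.08 over all detected genes. No test was made of this difference, since S52 is 1 library.

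**Figure D3:**
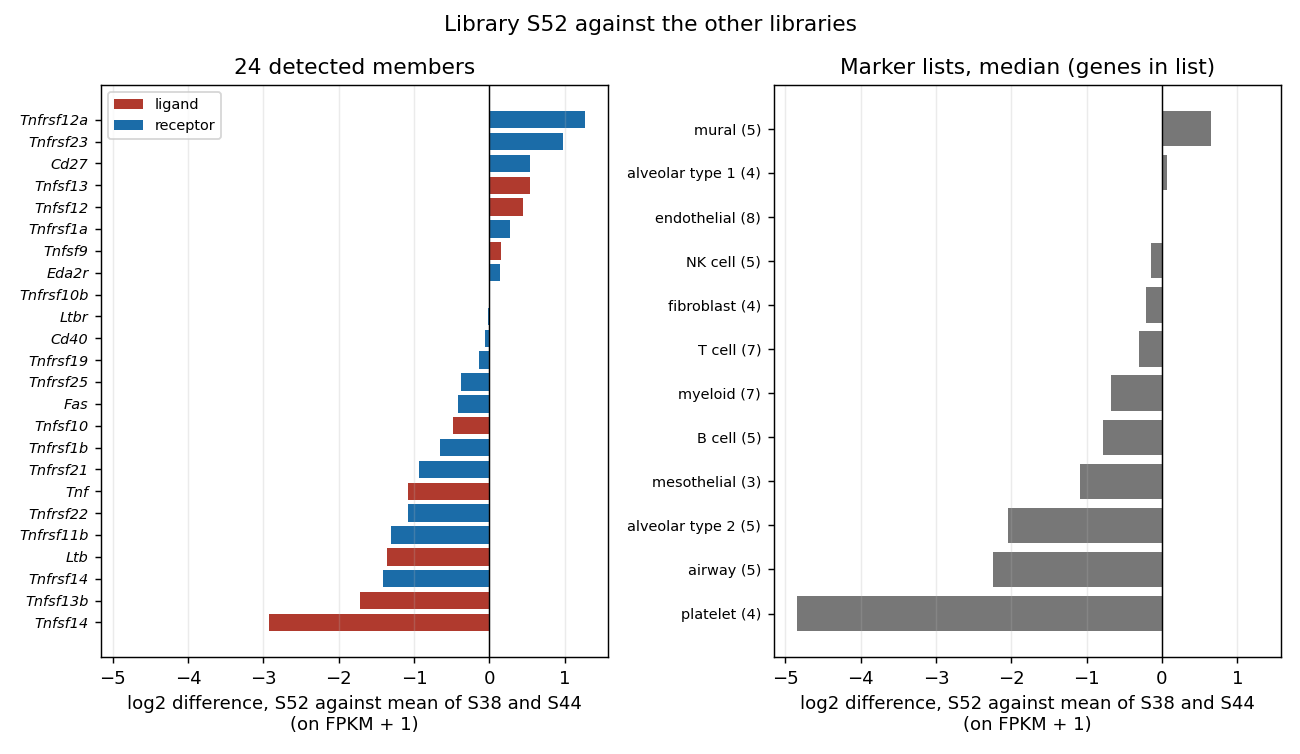
The left panel shows for each detected member (ligands red, receptors blue) the log2 difference of S52 from the mean of S38 and S44 on FPKM + 1, and the right panel the median of the same quantity over each marker list. *Tnfsf14* lies at -2.92 and *Tnfrsf12a* at 1.27, and the lists run from -4.85 for platelet genes to 0.65 for mural genes, with 0.02 for endothelial genes.

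Markers of other cells also differed in S52. The 4 platelet genes were all lowest in S52, where their sum was 37.96 FPKM against 1692 FPKM in S38 and 1345 FPKM in S44. The 24 T cell, B cell, NK cell and myeloid markers summed to 1145, 899.8 and 205 FPKM in the order S38, S44 and S52, and 20 of the 24 were lowest in S52. Most of that sum was *Lyz2*, which alveolar type 2 cells also express, and without it the sums were 97.9, 120.1 and 39.02 FPKM. In S52 6 of these markers were listed at 0, which were *Cd3e*, *Cd3g*, *Pax5*, *Ncr1*, *Klrb1c* and *Nkg7*. The B cell markers *Cd79a* and *Cd79b* remained at 3.17 and 2.91 FPKM there. Epithelial markers were lower in S52 as well, with sums of 3756, 3156 and 760 FPKM for 5 alveolar type 2 genes and 3070, 2525 and 453 FPKM for 5 airway genes. The 8 endothelial genes summed to 4757, 5290 and 4447 FPKM. Mural genes were highest in S38 and S52, at sums of 114, 58.7 and 109 FPKM, and 4 fibroblast genes were at 73.1, 56.0 and 41.9 FPKM. The 3 mesothelial genes were at 0 in S52 and summed to 2.04 and 5.83 FPKM in S38 and S44, and of the 4 alveolar type 1 genes 2 were lowest in S52 (*Hopx* and *Aqp5*) and 2 highest (*Ager* and *Rtkn2*), with sums of 348, 373 and 273 FPKM that were mostly *Hopx*. The part of these cells in the levels of *Tnf*, *Ltb*, *Tnfsf13b*, *Tnfsf14* and the other variable members was not tested.

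The genes that pass on signals from these receptors were detected almost throughout. Of 39 adaptors, kinases, ligases, caspases and proteases in a list, 38 (against 48.3% of all genes) had a mean of at least 1 FPKM in these cells and 38 reached it in every library. The exception was *Edaradd*, the adaptor of the ectodysplasin receptor, at 0.0257 FPKM in S44 and listed at 0 in S38 and S52. This list too was chosen with earlier results of these data known, so its share is a description and no test. The highest were *Traf7* at 76.2 ± 7.35 FPKM, *Rbck1* of the linear ubiquitin ligase complex at 57.0 ± 7.56 FPKM, *Tnfaip3*, which encodes the NF-kappaB inhibitor A20, at 51.4 ± 25.96 FPKM, the caspase inhibitor gene *Xiap* at 47.4 ± 4.23 FPKM and *Ripk1*, the kinase gene of the TNF receptor 1 complex, at 44.5 ± 10.3 FPKM (SD, n = 3 for each). The necroptosis genes *Ripk3* and *Mlkl* were at 30.3 ± 6.52 and 18.3 ± 0.64 FPKM, and *Cflar*, which encodes the inhibitor of caspase 8 activation, was at 38.9 ± 6.06 FPKM (SD, n = 3 for each) against 15.6 ± 2.78 FPKM (SD, n = 3) for *Casp8*. The adaptor genes were lower, with *Fadd* at 5.72, 3.10 and 1.69 FPKM and *Tradd* at 6.75, 8.01 and 4.21 FPKM. Of the TRAF genes with a direct role at these receptors, *Traf5* led at 17.8, 21.02 and 27.7 FPKM. *Traf1* had the lowest mean, at 2.28, 1.58 and 1.25 FPKM, although *Traf4* was lower in S38, at 2.05 FPKM. Only *Tnfaip3*, *Sharpin* and *Fadd* of the 38 detected genes (against 20.1% of all detected genes) differed by over 2-fold between libraries. Of the 38, 23 had a mean of at least 10 FPKM. Over all genes the share was 8.74% at that level and 33.0% between 1 and 10 FPKM.

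All 14 genes of a list of known TNF-responsive endothelial genes were detected, against 48.3% of all genes and 55.1% of the protein-coding genes of RefSeq. The list was made of genes known from endothelium, with earlier results of these data known, so this share is no test of TNF signalling. The highest mean was that of *Irf1*, an interferon response factor gene, with 404, 636 and 877 FPKM (S38, S44, S52). *Icam1*, the leukocyte adhesion molecule gene, followed with 453, 568 and 554 FPKM and *Nfkbia*, which encodes the NF-kappaB inhibitor IkappaB alpha, with 263, 351 and 488 FPKM. The chemokine gene *Cxcl10* had 24.5, 40.6 and 78.1 FPKM and the adhesion molecule gene *Vcam1* 39.1, 51.3 and 42.5 FPKM. S52 was the highest library for 8 of the 14 genes (against 33.9% of detected genes) and the lowest for 3 (against 46.3%). *Irf1*, *Cxcl10*, *Sele* and *Ccl2* (4 of the 14, against 20.1% of detected genes) differed by over 2-fold between libraries. Of the 14, 12 had a mean of at least 10 FPKM. Over all genes of that level 8.74% differed by over 2-fold, and S52 was highest for 38.6% and lowest for 42.3%. Outside the naming rule, the ligand gene *Eda* and the receptor gene *Relt* stayed below 0.6 FPKM in every library.

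**Figure D4:**
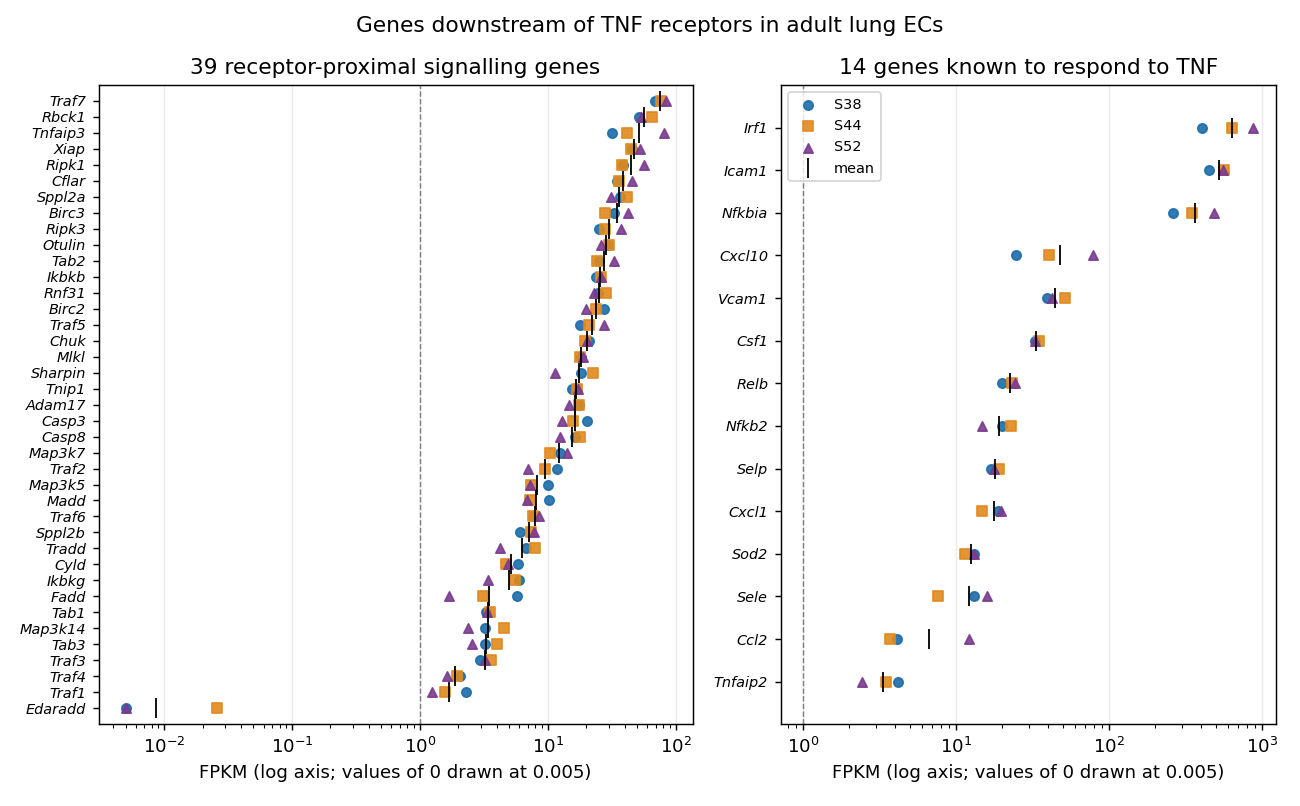
Each row is a gene of the signalling list (left, 39 genes) or of the list of genes known to respond to TNF (right, 14 genes), with its FPKM in each library on a log axis, 0 drawn at 0.005, the mean as a bar and 1 FPKM as a dashed line. All rows but *Edaradd* lie above 1 FPKM in every library, and *Tnfaip3* runs from 31.9 FPKM in S38 to 80.8 FPKM in S52.

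The members also share positions in the genome. In GENCODE M21 (GRCm38) 22 of the 44 lie within 100 kb of another member, in 9 clusters, and levels within a cluster differed widely. On chromosome 6 (125232622 to 125362484), *Cd27*, *Ltbr* and *Tnfrsf1a* had means of 3.24, 51.2 and 153 FPKM. On chromosome 17 (35194439 to 35205351), *Ltb*, *Tnf* and *Lta* were all low, at 1.30, 1.90 and 0.0629 FPKM. A second cluster of ligands on chromosome 17 (57105325 to 57194177) held *Tnfsf9* at 5.09 FPKM, *Cd70* at 0 and *Tnfsf14* at 4.39 FPKM, of which *Tnfsf9* was steady between libraries and *Tnfsf14* was not. On chromosome 4, *Tnfrsf1b* at 3.27 FPKM lies beside *Tnfrsf8* at 0.0422 FPKM, *Tnfrsf4* beside *Tnfrsf18*, and *Tnfsf15* beside *Tnfsf8*. The remaining clusters are *Tnfsf4* with *Tnfsf18* on chromosome 1, *Tnfsf12* with *Tnfsf13* on chromosome 11, and the *Tnfrsf26*, *Tnfrsf22* and *Tnfrsf23* locus on chromosome 7. Of the 44 members, 29 share no window of 51 bases with a transcript of another gene, and 6 share over 10% of them. Beside the genes of the chromosome 7 and 11 loci these are *Tnfrsf18*, with 18.1% shared with *Gm16008*, and *Tnfsf9*, with 11.5% shared with *Gm11110*. The libraries were made without strand information, so fragments of genes that overlap on opposite strands cannot be told apart. *Tnfrsf22* and *Tnfrsf23* lie on the same strand, as do *Tnfsf12* and *Tnfsf13*, so strand information would not separate the shared sequence of these loci.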

How the data were processed

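Libraries from sorted lung ECs used poly-A selection and no strand marking, and both ends were read over 51 bp. FPKM per gene symbol (mm10) is the unit of the table that the authors deposited. Per the labels, the submitters' processing notes name Trimmomatic 0.36, TopHat2 2.1.0 and Cufflinks 2.2.1, without saying what each did, whereas the paper's methods describe STAR and HTSeq for counts, which the authors normalized with edgeR, and limma for differential expression. The gene annotation is not given in the sources used here. All 3 per-sample columns were used and 0 were left out. Values were read as deposited, with no count model, and log2 differences use a pseudocount of 1 FPKM, which understates changes of low genes.

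Depth was estimated in 7077 genes with 1 basic GENCODE M21 transcript of 800 to 4000 bp, by searching for the number of fragments and the length correction that turn low values into whole numbers. At the chosen setting 79.0% of 324 values in S38, 77.4% of 412 in S44 and 74.9% of 207 in S52 lay within 0.15 of a whole number. On simulated counts for these genes, 3 known depths were recovered to within 0.0556%. The simulation used the transcript lengths and constant length correction that the search assumes. It therefore checks the search and does not measure the error of the estimates in these libraries. Fragment numbers of members use their longest basic transcript and are estimates. Of the symbols, 23310 (95.7%) were found in GENCODE M21. Promoter entries on chromosome 18 were not used here.

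The members and lists were chosen with earlier results of these data known. Named genes were all members, the highest 5 of the signalling list, genes listed at 0, and the marker lists, and further genes of the lists were named after their values were seen. The lists are endothelial, T cell, B cell, NK cell, myeloid, platelet, alveolar type 2, alveolar type 1, airway, fibroblast, mural, mesothelial, signalling and TNF-responsive genes. *Trac* has no row. Pairs of members were compared by an exact two-sided sign-flip permutation test over libraries. Alternatives left out each library, rescaled the libraries, and changed the threshold of detection, the fold and the pseudocount. The libraries were numbered 1 to 3 in the order S38, S44 and S52. Analyses used Python 3.11.15, numpy 2.4.6 and pandas 2.3.3.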

Additional observations from a re-analysis of the deposited data

How the results depend on the processing

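The count of 24 detected members was 23 to 24 when 1 library was left out, 22 with each library rescaled to a sum of 1000000 and 24 under both other scalings. With the threshold at 0.1, 3 or 10 FPKM it was 37, 15 or 9. The count of 10 members over 2-fold between libraries was 0 to 10 when 1 library was left out, with 0 without S52. With each library rescaled to a sum of 1000000 the count was 12, and under both other scalings 10. It was 23, 4 or 1 with detection at 0.1, 3 or 10 FPKM, 4 when every library had to reach 1 FPKM, 16 with a limit of 1.5-fold and 8 with 3-fold. The 8 pairs with both sides detected became 7 to 8 when 1 library was left out, 18, 5 or 2 with detection at 0.1, 3 or 10 FPKM and 3 when every library had to reach 1 FPKM. Asking this of S38 and S44 alone, an alternative chosen after seeing the data, gave 23 members, 8 pairs, 38 signalling genes and 0 members over 2-fold. The 38 signalling genes became 23 at 10 FPKM. The log2 difference of *Tnfrsf22* from *Tnfrsf23* ranged from -0.44 to 0.66 when 1 library was left out and was reversed, at 0.66, without S52. The other 5 differences kept their direction under all alternatives run. These counts depend on the thresholds by construction. No paired analysis was possible because there is 1 group. Rescaling to a sum of 1000000 lowered the means of all 24 detected members by a similar factor, from 0.709 for *Tnfrsf14* to 0.774 for *Ltb*. The sums differed between libraries, at 1.15e+06 (S38), 1.60e+06 (S44) and 1.42e+06 (S52), so this rescaling also shifted the libraries against each other. It took *Fas* to 131 FPKM and *Tnfrsf1a* to 111 FPKM. Under median-of-ratios scaling these were 175 and 152 FPKM. Short noncoding genes made up 59.9% (S38), 70.3% (S44) and 67.0% (S52) of the deposited sums. The mean of *Ltb* was 0.763 FPKM without S38, and that of *Tnfrsf23* 1.44 FPKM without S52. At the estimated depths, values below about 0.1 FPKM rest on few fragments.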
